A study of Mus musculus with 12 samples.

Results

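Adipokines are the hormones that fat cells release into the blood or into the surrounding tissue. The genes described here are 10 of the 55487 genes in the table: 8 genes of secreted proteins (Adipoq, Cfd, Retn, Lep, Angptl4, Apln, Nampt and Serpinf1) and the genes of both adiponectin receptors (Adipor1 and Adipor2). They were chosen by name, as known adipocyte hormones and receptors, with earlier results of these data known. Each symbol occurred once in the table. Of these, 9 passed the filter on low values (at least 1 TPM in 2 or more libraries), and Lep did not.

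RNA was sequenced from 3T3-L1 cells, a mouse fibroblast line whose preadipocytes turn into fat-storing cells after a hormonal cocktail (MDI) is added to confluent cultures. The cells carried a lentiviral hairpin, either a scrambled control (shScram) or one directed at Fto (shFTO), the gene of an RNA demethylase, and were selected with puromycin. They were collected as preadipocytes (Pre), at mitotic clonal expansion (MCE), when induced cells divide again, and after differentiation (Diff), with 2 libraries in each of the 6 groups. The comparison asks how the transcripts of differentiating fat cells differ between the line with the Fto hairpin and the control line. The labels do not say which Fto hairpin was used. Lower Fto, other effects of the hairpin and a difference between the 2 transduced lines cannot be told apart. The term knockdown effect below means the difference between these lines. All 6 groups derive from 3T3-L1 cells, and the labels call every sample a fibroblast. The labels do not say whether replicates were separate cultures, so that p-values measure only the spread between these libraries, which may be technical.

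Values are TPM, transcript abundance scaled by gene length and library total, so levels can be set side by side between genes, and the sequencing depth is unknown. Differences are log2 fold changes on the log2(TPM + 1) scale with a standard error (SE), which understates changes of low genes. They were tested by limma over all 15968 genes past the filter, and a call is an adjusted p under 0.05 (Benjamini-Hochberg). In bulk RNA, fewer differentiated cells and less transcript per cell cannot be told apart. Fto itself lay between 52.7 and 73.5 TPM in the shScram libraries and between 5.51 and 7.47 TPM in the shFTO libraries. Replicate 1 of shScram Pre stood apart from its replicate (r = 0.939 over genes, against 0.990 to 0.993 in the other groups), and its median r with the libraries of other groups was 0.881, against 0.929 to 0.946 for the other 11 libraries. The title of replicate 1 of shScram Diff names shScram while its treatment entry names the knockdown. The title was followed, and its Fto level was 73.5 TPM. Calls of the members that changed without either library are given with and without it. For other named genes and for lists this is done only in part.

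As background, adiponectin (Adipoq) is made almost only by fat cells and acts through the receptors ADIPOR1 and ADIPOR2 and through T-cadherin (Cdh13). Adipsin (Cfd) is complement factor D, the protease that starts the alternative complement pathway. Resistin (Retn) is a small secreted protein of mouse fat cells, and leptin (Lep) signals energy stores to the brain. ANGPTL4 inhibits lipoprotein lipase and is a target of PPAR factors, apelin (Apln) is the ligand of the receptor APLNR, NAMPT makes the NAD precursor nicotinamide mononucleotide and is also released as visfatin, and PEDF (Serpinf1) is a secreted serpin that blocks vessel growth. Cultured 3T3-L1 adipocytes are known to make adiponectin, adipsin and resistin strongly and leptin poorly.

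The start regions of the 3 adipocyte hormones that were lower together in shFTO cells are shown with that of Lep, which stayed at or near 0. Each is the 250 bases before the RefSeq start on GRCm38.p6, read 5′ to 3′ on the gene's strand, which is the plus strand for these 4 genes. Adipoq is at chr16:23146286-23146535, Cfd at chr10:79890603-79890852, Retn at chr8:3655520-3655769 and Lep at chr6:29059971-29060220. Capitals mark matches, on either strand, to CCAAT, to TTGCNNAA (a C/EBP-type element), to AGGTCA (a core bound by nuclear receptors) or to TATAAA.
Adipoq: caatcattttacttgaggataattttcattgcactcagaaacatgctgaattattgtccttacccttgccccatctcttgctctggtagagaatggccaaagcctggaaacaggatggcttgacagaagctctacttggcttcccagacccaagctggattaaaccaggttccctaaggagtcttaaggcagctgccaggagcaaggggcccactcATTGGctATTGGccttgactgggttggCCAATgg
Cfd: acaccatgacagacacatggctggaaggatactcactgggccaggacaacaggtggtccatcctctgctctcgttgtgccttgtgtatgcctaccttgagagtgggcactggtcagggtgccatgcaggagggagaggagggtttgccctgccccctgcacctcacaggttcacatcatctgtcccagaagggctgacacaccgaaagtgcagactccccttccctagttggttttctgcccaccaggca
Retn: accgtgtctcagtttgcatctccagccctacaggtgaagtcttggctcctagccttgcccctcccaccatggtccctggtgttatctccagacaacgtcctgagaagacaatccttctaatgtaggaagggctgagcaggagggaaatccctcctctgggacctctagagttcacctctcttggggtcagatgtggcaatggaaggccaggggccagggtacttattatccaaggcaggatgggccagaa
Lep: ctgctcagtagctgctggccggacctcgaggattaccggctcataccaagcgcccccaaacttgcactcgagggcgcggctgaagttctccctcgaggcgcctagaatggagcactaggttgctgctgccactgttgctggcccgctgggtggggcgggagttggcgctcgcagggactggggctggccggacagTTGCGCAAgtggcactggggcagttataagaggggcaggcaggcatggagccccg
The Adipoq window held 3 CCAAT matches on one or the other strand, the Lep window held a single match to the C/EBP-type element, and the Cfd and Retn windows held none of the 4 motifs. Of 32851 RefSeq windows of the same length, 33.8% held CCAAT, 9.56% the C/EBP-type element, 14.0% AGGTCA and 12.4% TATAAA. Among the 9 members with a window, 3 held CCAAT, 1 the C/EBP-type element, 2 AGGTCA and 0 TATAAA. These letters are a description of the windows and say nothing of binding.

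After differentiation, the transcripts of the fat cell hormones adiponectin, adipsin and resistin were far lower in shFTO than in shScram cells, and that of apelin was higher. Of the 9 members tested, 5 were called, 4 lower (Adipoq, Cfd, Retn and Angptl4) and 1 higher (Apln). Retn is counted although it met the filter on low values only through shScram libraries. Over all genes tested, 21.2% were called at this stage, 11.9% higher and 9.31% lower in shFTO cells. The median log2 fold change was -0.45 over the members and 0.03 over all genes tested. The libraries of the lines did not overlap for all members but Lep, as held for 72.9% of all genes. Both adiponectin receptors, Nampt and Serpinf1 did not pass. Leaving out either shScram Pre library gave 8 calls, and leaving out either shFTO Diff library 3.

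**Figure D1:**
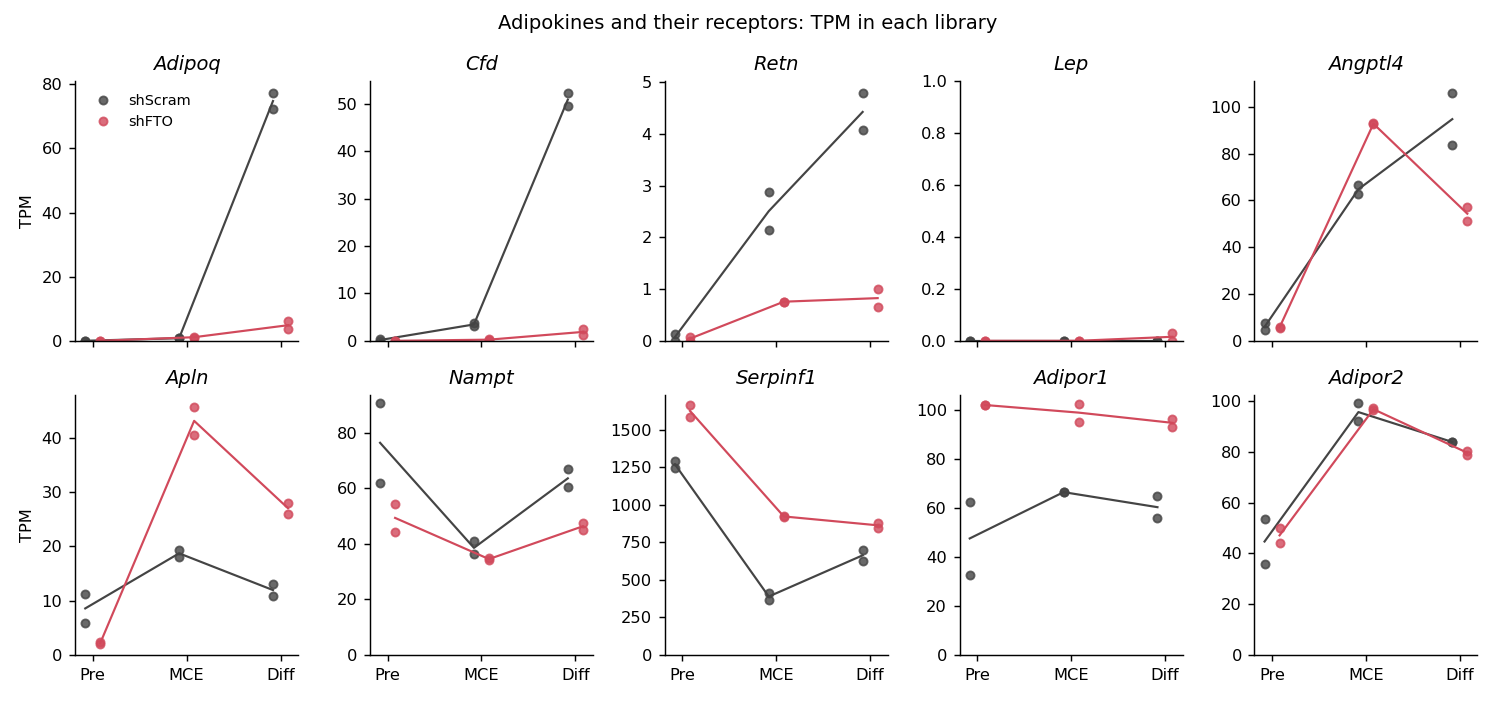
TPM of each of the 10 members (vertical axes, each starting at 0 and with its own range) in preadipocytes (Pre), at clonal expansion (MCE) and after differentiation (Diff). Points are single libraries, 2 in each group, and lines join group means, with shScram grey and shFTO red. Adipoq and Cfd climbed to 72.4 to 77.2 TPM and 49.6 to 52.3 TPM in shScram Diff libraries and stayed at or below 6.05 and 2.50 TPM in shFTO Diff libraries.

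Adipoq (ENSMUSG00000022878, chromosome 16 from 23146536 to 23158028 on GRCm38) was listed at 0 in all 4 Pre libraries. At MCE it reached 0.817 and 0.791 TPM (shScram) and 0.984 and 1.25 TPM (shFTO). After differentiation it was 77.2 and 72.4 TPM in shScram cells and 6.05 and 3.66 TPM in shFTO cells. The lines were thus at a similar low level at the MCE stage and well separated at the end. The log2 fold change of shFTO against shScram was 0.23 (SE 0.20, adjusted p = 0.51) at the MCE stage, with a 95% interval of -0.22 to 0.68, and -3.72 (SE 0.20, adjusted p = 5.28e-06) after differentiation. Mean TPM after differentiation was 15.4-fold lower in shFTO cells. Between MCE and Diff, Adipoq rose in both lines, by 5.39 (SE 0.20, adjusted p = 1.2e-05) in shScram cells and by 1.44 (SE 0.20, adjusted p = 0.00118) in shFTO cells on the log2 scale. The difference between these steps was itself called (-3.95, SE 0.28, adjusted p = 0.00075). Without replicate 1 of shScram Diff, the difference between the lines after differentiation was -3.68 (adjusted p = 0.000189), and the call was kept in each of the 12 fits that left out 1 library, with adjusted p between 4.55e-07 and 0.000189.

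Cfd (ENSMUSG00000061780, chromosome 10 from 79890853 to 79892655), the gene of adipsin, was 0 and 0.320 TPM in shScram Pre libraries and listed at 0 in both shFTO Pre libraries. By MCE it stood at 3.74 and 3.16 TPM in shScram cells but 0.124 and 0.346 TPM in shFTO cells. After differentiation it was 52.3 and 49.6 TPM in shScram cells against 2.50 and 1.25 TPM in shFTO cells. The Cfd difference was already called at the MCE stage, with shFTO lower. Adipoq was near the floor there, with both shFTO libraries above both shScram libraries and no call. The contrast between Cfd and Adipoq was not tested. The log2 fold change of Cfd was -1.85 (SE 0.24, adjusted p = 0.00095) at the MCE stage. After differentiation it was -4.21 (SE 0.24, adjusted p = 7.08e-06), with a mean TPM 27.2-fold lower in shFTO cells. Without replicate 1 of shScram Diff that value was -4.18. In Pre libraries Cfd was at or near 0, so a lower value could hardly show there. At MCE mean TPM was 3.45 (shScram) against 0.235 (shFTO), a gap that the log2(TPM + 1) scale compresses. On that scale the knockdown effect changed by -1.65 (SE 0.33, adjusted p = 0.0271) from Pre to MCE. It changed by -2.36 (SE 0.33, adjusted p = 0.0085) from MCE to Diff. The first of these differences was called in only 4 of 12 fits that left out 1 library (without replicate 1 or 2 of shScram Pre, or 1 or 2 of shFTO Diff), with adjusted p between 0.00124 and 0.122. The second lost its call without replicate 2 of shFTO MCE (adjusted p = 0.0539) and with a pseudocount of 0.1 (adjusted p = 0.62), which weighs values under 1 TPM more.

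Retn (ENSMUSG00000012705, chromosome 8 from 3655770 to 3660110), the gene of resistin, stayed low throughout. It was 0 and 0.141 TPM in shScram Pre libraries and 0 and 0.0821 TPM in shFTO Pre libraries. At MCE, shScram libraries held 2.13 and 2.88 TPM, shFTO libraries 0.754 and 0.757 TPM, and after differentiation 4.78 and 4.06 TPM against 0.992 and 0.657 TPM. No shFTO library reached the lowest shScram value of either induced stage. Retn reached 1 TPM only in shScram MCE and shScram Diff libraries. It thus met the filter on low values through the groups where it is high, and its calls between the lines depend on that. The log2 fold change was -0.99 (SE 0.18, adjusted p = 0.00585) at the MCE stage and -1.57 (SE 0.18, adjusted p = 0.000431) after differentiation, a 5.36-fold lower mean TPM (-1.48 without replicate 1 of shScram Diff, adjusted p = 0.00583). The MCE call was lost without replicate 2 of shScram MCE (adjusted p = 0.0526) and with a pseudocount of 0.1 (adjusted p = 0.0624). The step from MCE to Diff was called in shScram cells (0.63, SE 0.18, adjusted p = 0.0326) and was 0.05 (SE 0.18, adjusted p = 0.88) in shFTO cells, and the difference between them did not pass (-0.59, SE 0.26, adjusted p = 0.32). That shScram call was lost in 6 of 12 fits that left out 1 library, with adjusted p between 0.0185 and 0.171; the libraries were both of shScram MCE, both of shScram Diff and both of shFTO MCE. It was also lost under median-ratio scaling (0.43) and quantile normalization (0.24).

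Lep (ENSMUSG00000059201, chromosome 6 from 29060220 to 29073877) was listed at 0 in 11 libraries and at 0.0309 TPM in replicate 1 of shFTO Diff. It did not enter the tests. Its receptor gene Lepr lay between 0.0911 and 0.687 TPM over the 12 libraries and did not enter the tests either. Leprot, a gene near Lepr on the same strand whose product limits receptor traffic to the cell surface, was 59.3 to 95.8 TPM (shScram) and 106 to 145 TPM (shFTO), and was higher in shFTO cells at all 3 stages (1.12, 0.49 and 0.49, with adjusted p between 0.000676 and 0.0255). The last of these calls was lost without replicate 1 of shScram Diff (0.56, adjusted p = 0.0637).

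**Figure D2:**
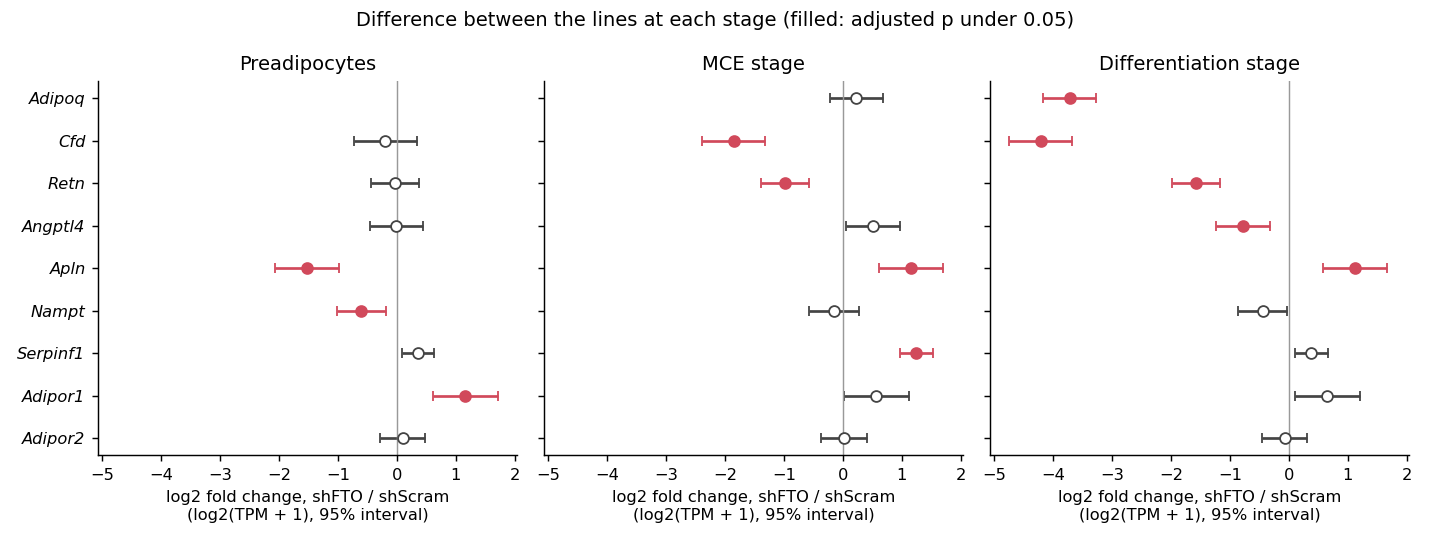
Log2 fold change of shFTO against shScram (horizontal axes, log2(TPM + 1) scale, the same range in each panel) for 9 members at the 3 stages, with 95% intervals from the limma fit. Filled red points passed an adjusted p under 0.05 and open points did not, and Adipoq is left out in preadipocytes, where it was listed at 0. The fall of Adipoq and Cfd after differentiation exceeded that of the other members, and Apln lay below 0 in preadipocytes and above 0 at both later stages.

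Angptl4 (ENSMUSG00000002289, chromosome 17 from 33773750 to 33781830) behaved differently from the hormones above. Preadipocytes held 4.46 and 7.41 TPM (shScram) and 5.50 and 5.95 TPM (shFTO). Cells at MCE held 66.8 and 62.8 TPM (shScram) and 92.9 and 92.7 TPM (shFTO), and after differentiation 106.0 and 83.6 TPM against 57.3 and 51.4 TPM. The values overlapped in preadipocytes, shFTO was above shScram at the MCE stage, and the order was turned after differentiation. The log2 fold change was -0.01 (SE 0.20, interval -0.47 to 0.44) in preadipocytes, 0.51 (SE 0.20, adjusted p = 0.12) at the MCE stage and -0.78 (SE 0.20, adjusted p = 0.0237) after differentiation. The change of the effect from MCE to Diff was -1.30 (SE 0.28) and just missed the threshold (adjusted p = 0.0532), with a range of 0.000586 to 0.197 over the alternatives. It passed under both other scalings, with only the libraries of the contrast and without either shScram Pre library. The change of the effect from Pre to MCE did not pass in the main fit. It passed without replicate 1 of shScram Pre, at 0.83. The call after differentiation was lost without replicate 1 of shScram Diff (-0.61, adjusted p = 0.161), the library with conflicting labels, and without replicate 1 or 2 of shFTO Diff. Without replicate 1 of shScram Pre, the difference at the MCE stage passed (adjusted p = 0.004), with the same log2 fold change, and so it did without replicate 2 of that group.

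Within each line, the rise of Angptl4 from Pre to MCE was among the largest of the members. It was 3.28 (SE 0.20, adjusted p = 7.05e-06) in shScram and 3.80 (SE 0.20, adjusted p = 3.95e-06) in shFTO cells on the log2 scale, and both calls were kept with each library left out in turn. From MCE to Diff, Angptl4 fell by 0.76 (SE 0.20, adjusted p = 0.0219) in shFTO cells and was 0.53 higher (SE 0.20, adjusted p = 0.0841) in shScram cells. That fall lost its call without replicate 1 or 2 of shFTO MCE or of shFTO Diff, with adjusted p up to 0.129. The shScram step passed without replicate 1 of shScram Pre (adjusted p = 0.00275) and without replicate 2 of that group. Lpl, the lipase that ANGPTL4 inhibits, was higher in shFTO cells in preadipocytes (0.91, SE 0.20, adjusted p = 0.0124) and at the MCE stage (1.22, SE 0.20, adjusted p = 0.00324). Its difference after differentiation did not pass (-0.21, SE 0.20, adjusted p = 0.51), with 303 and 333 TPM (shScram) and 282 and 269 TPM (shFTO).

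The apelin transcript was called lower in preadipocytes and higher at both later stages. Apln (ENSMUSG00000037010, X chromosome from 48025146 to 48034853) was 5.92 and 11.2 TPM in shScram Pre libraries and 2.35 and 2.01 TPM in shFTO Pre libraries. It was 19.3 and 18.1 TPM against 40.6 and 45.7 TPM at MCE, and 12.99 and 10.9 TPM against 26.0 and 28.1 TPM after differentiation. The shFTO libraries were thus below the shScram libraries in preadipocytes and above them at both later stages. The log2 fold changes were -1.53 (SE 0.24, adjusted p = 0.0033), 1.16 (SE 0.24, adjusted p = 0.0103) and 1.12 (SE 0.24, adjusted p = 0.0107) in stage order. The change of the effect from Pre to MCE was 2.69 (SE 0.34, adjusted p = 0.00317) and was called under all 20 alternatives, with adjusted p between 6.78e-06 and 0.0317. From MCE to Diff the change was -0.04 (SE 0.34), with an interval of -0.81 to 0.72.

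Without replicate 1 of shScram Pre, the Apln difference in preadipocytes was -1.94 (adjusted p = 1.92e-05). That call was lost when only the preadipocyte libraries were fitted (adjusted p = 0.22). The difference after differentiation was 1.23 without replicate 1 of shScram Diff (adjusted p = 0.0412). The call at the MCE stage was lost without any of the 4 MCE libraries (adjusted p up to 0.0843), and the call after differentiation without replicate 2 of shScram Diff or without replicate 1 or 2 of shFTO Diff (adjusted p up to 0.0812). Apln rose from Pre to MCE in both lines, by 1.10 (SE 0.24, adjusted p = 0.00718) in shScram and by 3.79 (SE 0.24, adjusted p = 9.85e-06) in shFTO cells. The apelin receptor gene Aplnr was at 0 to 0.273 TPM over the 12 libraries, under the filter.

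Nampt (ENSMUSG00000020572, chromosome 12 from 32819545 to 32853349) was among the steadier members. It was 90.7 and 62.1 TPM in shScram Pre and 44.2 and 54.5 TPM in shFTO Pre libraries, 40.9 and 36.2 TPM against 34.9 and 34.1 TPM at MCE, and 60.4 and 66.8 TPM against 45.0 and 47.6 TPM after differentiation. At each stage both shFTO libraries lay below both shScram libraries. The log2 fold changes were -0.60 (SE 0.18, adjusted p = 0.0403), -0.15 (SE 0.18, adjusted p = 0.65) and -0.45 (SE 0.18, adjusted p = 0.122). The call in preadipocytes was lost in 11 of 12 fits that left out 1 library, all but the one without replicate 2 of shScram Pre; without replicate 1 of shScram Pre it was -0.33 (adjusted p = 0.0817). Without replicate 1 or without replicate 2 of shScram Pre, the difference after differentiation passed (adjusted p = 0.00641 in the fit without replicate 1). Nampt overlaps Gdap10 on the same strand, so its values are uncertain to that extent.

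Serpinf1 (ENSMUSG00000000753, chromosome 11 from 75409769 to 75422701) had the highest level of all members in each of the 6 groups. It was 1292 and 1247 TPM in shScram Pre libraries and 1665 and 1586 TPM in shFTO Pre libraries. At MCE it was 410 and 368 TPM against 921 and 924 TPM, and after differentiation 625 and 701 TPM against 848 and 878 TPM. The shFTO libraries were above the shScram libraries at every stage, and the gap was widest at the MCE stage. The log2 fold change there was 1.25 (SE 0.12, adjusted p = 0.00021), a call kept with each library left out. In preadipocytes it was 0.36 (SE 0.12, adjusted p = 0.0553) and after differentiation 0.38 (SE 0.12, adjusted p = 0.0544), each just short of the threshold. Both passed without replicate 1 of shScram Pre (adjusted p = 0.017 and 0.00339) and without replicate 2 of that group.

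The Serpinf1 effect rose from Pre to MCE by 0.89 (SE 0.17, adjusted p = 0.0224) and fell again by 0.86 (SE 0.17, adjusted p = 0.036) from MCE to Diff. Each of these calls was lost in several of the 12 fits that left out 1 library. The first was kept without replicate 1 or 2 of shScram Pre or of shScram Diff only, and the second without replicate 1 or 2 of shScram Pre only. The second was also lost under both other scalings (adjusted p = 0.0658 and 0.0796). Within the lines, Serpinf1 fell from Pre to MCE by 1.71 (SE 0.12, adjusted p = 1.66e-05) in shScram and by 0.82 (SE 0.12, adjusted p = 0.00116) in shFTO cells. It then rose by 0.77 (SE 0.12, adjusted p = 0.00254) in shScram cells, against -0.10 (SE 0.12, adjusted p = 0.62) in shFTO cells.

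Of the receptor genes, Adipor1 was called between the lines in preadipocytes and Adipor2 at no stage. Adipor1 (ENSMUSG00000026457, chromosome 1 from 134415378 to 134433351) was 32.7 and 62.6 TPM in shScram Pre libraries, 66.7 and 66.4 TPM at MCE, and 64.9 and 55.9 TPM after differentiation. In shFTO cells it was 102.4 and 102.1 TPM, 95.5 and 103 TPM, and 96.5 and 93.3 TPM at the same stages. Each shFTO library was above each shScram library, whatever the stage. The log2 fold changes were 1.16 (SE 0.24, adjusted p = 0.0114), 0.57 (SE 0.24, adjusted p = 0.155) and 0.65 (SE 0.24, adjusted p = 0.0962). In preadipocytes the call was lost without replicate 1 or 2 of shFTO Pre and when only the preadipocyte libraries were fitted. The lower shScram Pre value came from replicate 1, and without it the difference in preadipocytes was 0.70 (adjusted p = 0.000614), while those at MCE and Diff were called with their values unchanged (adjusted p = 0.000283 and 0.000107), as they were without replicate 2.

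Adipor2 (ENSMUSG00000030168, chromosome 6 from 119353150 to 119417704) showed no call between the lines. It was 35.9 and 53.4 TPM (shScram) against 44.1 and 50.0 TPM (shFTO) in Pre libraries, 99.1 and 92.1 against 97.1 and 96.4 TPM at MCE, and 84.0 and 83.7 against 78.9 and 80.3 TPM after differentiation. The log2 fold changes were 0.10, 0.02 and -0.07 (SE 0.17 each), with 95% intervals of -0.29 to 0.48, -0.37 to 0.40 and -0.46 to 0.31. The sign of the first turned under quantile normalization and that of the second under both other scalings. Without replicate 2 of shScram Pre, however, the preadipocyte difference was called (adjusted p = 0.0044). From Pre to MCE, Adipor2 rose in both lines, by 1.11 (SE 0.17, adjusted p = 0.00127) in shScram and by 1.03 (SE 0.17, adjusted p = 0.00206) in shFTO cells, and these calls held with each library left out.

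The balance of the receptor transcripts was read as a ratio in each library. The ratio of Adipor1 to Adipor2 TPM was 0.911 and 1.17 in shScram Pre, 0.673 and 0.721 in shScram MCE and 0.773 and 0.668 in shScram Diff libraries. In shFTO cells it was 2.32 and 2.04, 0.983 and 1.07, and 1.22 and 1.16. At each stage both shFTO ratios were above both shScram ratios, which with 2 libraries against 2 was not tested on its own.

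**Figure D3:**
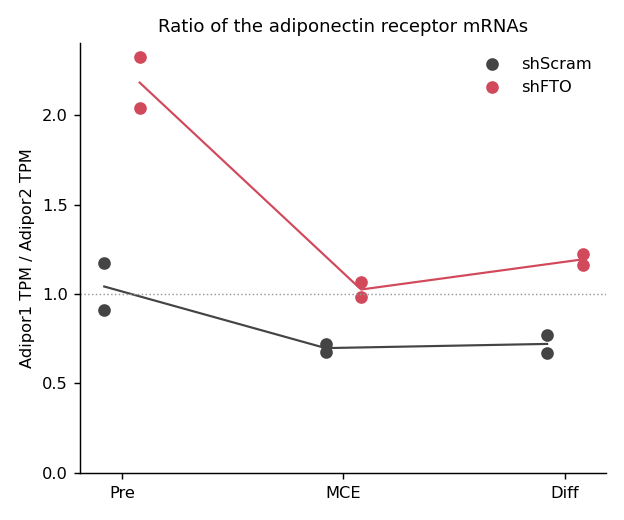
Ratio of Adipor1 TPM to Adipor2 TPM (vertical axis, from 0) in each library at the 3 stages, with lines through the group means and a dotted line at 1. The shFTO libraries (red) lay above the shScram libraries (grey) at each stage, from 2.04 to 2.32 against 0.911 to 1.17 in preadipocytes.

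The other receptors and adaptors of the members were also measured. Cdh13, the gene of the adiponectin-binding T-cadherin, was lower in shFTO cells at all 3 stages, with log2 fold changes of -1.30 (SE 0.14, adjusted p = 0.000582), -1.46 (SE 0.14, adjusted p = 0.000192) and -2.16 (SE 0.14, adjusted p = 1.7e-05). Its levels after differentiation were 237 and 227 TPM (shScram) and 48.5 and 54.1 TPM (shFTO). Cdh13 overlaps short genes on the opposite strand, and whether counting used strand is not given in the sources used here. Appl1, an adaptor that binds the adiponectin receptors, was lower in preadipocytes (-1.08, SE 0.22, adjusted p = 0.011), and its difference did not pass at the MCE stage (-0.16, adjusted p = 0.70) or after differentiation (-0.28, adjusted p = 0.43). Appl2, its homologue, was lower after differentiation (-0.65, SE 0.19, adjusted p = 0.0435), a call lost without replicate 1 of shScram Diff (adjusted p = 0.173). Cap1, a binding partner of resistin in human cells, did not pass at any stage, with log2 fold changes between 0.06 and 0.17.

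**Figure D4:**
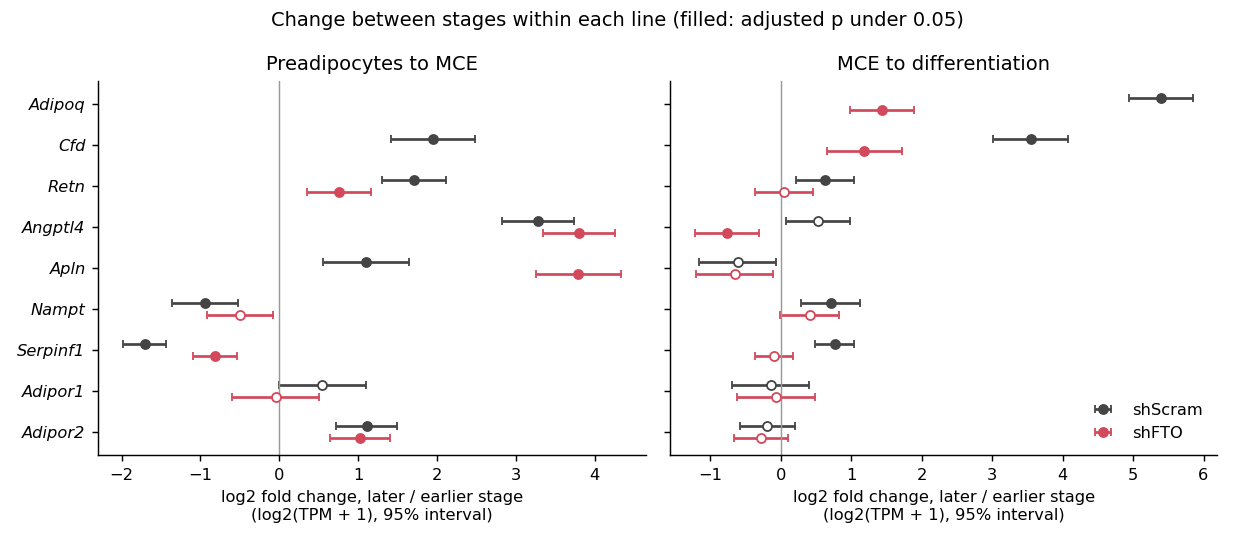
Log2 fold change between successive stages (horizontal axes, log2(TPM + 1) scale) for 9 members in shScram (grey) and shFTO (red), with 95% intervals and with filled points for an adjusted p under 0.05. Steps from a group listed at 0 are left out, namely Adipoq from Pre to MCE in both lines and Cfd in shFTO cells. From MCE to Diff, Adipoq rose by 5.39 in shScram and 1.44 in shFTO cells and Cfd by 3.55 and 1.19.

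The course of the members over differentiation was compared within each line. From Pre to MCE, 8 of 9 members were called in shScram cells (6 higher and 2 lower) and 6 in shFTO cells (5 higher and 1 lower). Over all genes tested the shares were 39.1% in shScram cells, 12.2% higher and 26.9% lower, and 28.7% in shFTO cells, 8.80% higher and 19.9% lower. In both lines Adipoq, Retn, Angptl4, Apln and Adipor2 rose and Serpinf1 fell. Retn is counted although it met the filter on low values only through induced shScram libraries, where it is high. Its shFTO values stayed under 1 TPM. The shScram Adipoq call was lost without replicate 2 of shScram MCE (adjusted p = 0.0524), and the shFTO Retn call without replicate 1 of shFTO Pre or replicate 1 or 2 of shFTO MCE (adjusted p up to 0.0742). The Adipor1 step in shScram cells was 0.55 (SE 0.24, adjusted p = 0.105) and passed under both other scalings and without replicate 2 of shScram Pre (1.00, adjusted p = 8.71e-06). Nampt fell by 0.95 (SE 0.18, adjusted p = 0.0043) and Cfd rose by 1.95 (SE 0.24, adjusted p = 0.000354) in shScram cells. In shFTO cells Nampt differed by -0.50 (SE 0.18, adjusted p = 0.0754), a step that passed without replicate 1 or 2 of shScram Pre, and the Cfd step did not pass (adjusted p = 0.40).

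From MCE to Diff, 5 members were called in shScram cells, all higher, against 25.2% of all genes, 20.0% higher and 5.22% lower. In shFTO cells 3 were called, 2 higher and 1 lower, against 26.7%, 20.2% higher and 6.48% lower. In shScram cells these were Adipoq, Cfd (3.55, SE 0.24, adjusted p = 4.9e-05), Retn, Nampt (0.71, SE 0.18, adjusted p = 0.0226) and Serpinf1. Those in shFTO cells were Adipoq, Cfd (1.19, SE 0.24, adjusted p = 0.00652) and Angptl4. The count for shScram cells includes Retn, which passed the filter on low values through these same shScram groups. The Nampt call was lost without replicate 1 or 2 of shScram MCE or of shScram Diff and under both other scalings (0.44 and 0.58), and the shFTO Cfd call without replicate 1 of shFTO MCE (adjusted p = 0.0557) and under quantile normalization (0.66, adjusted p = 0.0682). Apln did not pass in either line (-0.61 in shScram and -0.65 in shFTO cells) and was called lower in both under both other scalings. Both Apln steps also passed without replicate 1 or 2 of shScram Pre. The step of Adipor2 did not pass either (-0.19 in shScram and -0.28 in shFTO cells) and was called lower in both under median-ratio scaling. In shFTO cells the Adipor2 step and the Nampt step (0.41), neither called in the main fit, passed without replicate 1 or 2 of shScram Pre. Without replicate 1 of shScram Diff, 3 members kept a call in the shScram step (Adipoq 5.35, Cfd 3.51, Serpinf1 0.85), and 3 were also called without replicate 2 of that group or without either shScram MCE library. The shFTO step gave 6 calls without either shScram Pre library and 1 without replicate 1 of shFTO MCE. The median of all genes tested moved by -0.17 and 0.23 over these steps in shScram and by -0.18 and 0.17 in shFTO cells on the TPM scale, and lay within 0.05 of 0 under both other scalings.

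Differences of the knockdown effect between stages were called for 3 members from Pre to MCE (Apln and Serpinf1 upwards and Cfd downwards), against 5.11% of all genes, 2.52% upwards and 2.59% downwards, and for 3 from MCE to Diff (Adipoq, Cfd and Serpinf1, all downwards), against 2.49% of all genes, 1.47% upwards and 1.01% downwards. In preadipocytes, 3 members were called between the lines, 1 higher and 2 lower, against 28.2% of all genes (15.9% higher and 12.3% lower), a share near that of the members. By the MCE stage 4 were called, 2 higher (Serpinf1 and Apln) and 2 lower (Cfd and Retn), against 17.8% of all genes, 10.5% higher and 7.26% lower. Here too Retn met the filter only through shScram libraries. The libraries of the lines did not overlap for 4 of 10 members in preadipocytes and 8 of 10 at MCE, against 60.5% and 71.4% of all genes tested. Without replicate 1 of shScram Pre the members called were 3, 6 and 8 in stage order, and the shares over all genes were 29.0%, 41.0% and 45.7%. The preadipocyte count was 5 without replicate 2 of shScram Pre and 1 without either shFTO Pre library, and the MCE count was 2 without replicate 2 of shScram MCE. The changes of effect from Pre to MCE gave 7 calls without replicate 2 of shScram Pre and 1 without any of the 4 MCE libraries or either shFTO Pre library, and those from MCE to Diff gave 1 without replicate 2 of shFTO MCE. With replicate 1 of shScram Diff left out the members called between the lines were 2, 4 and 4, with 20.9%, 14.5% and 11.2%.

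The order of the members by mean TPM also changed. In shScram Diff cells it ran Serpinf1, Angptl4, Adipor2, Adipoq, Nampt, Adipor1, Cfd, Apln, Retn and Lep, and in shFTO Diff cells Serpinf1, Adipor1, Adipor2, Angptl4, Nampt, Apln, Adipoq, Cfd, Retn and Lep. Angptl4 and Adipor2 overlapped in shScram Diff libraries (83.6 to 106.0 and 83.7 to 84.0 TPM), as did Nampt with Adipor1 (60.4 to 66.8 and 55.9 to 64.9 TPM). In shFTO Diff libraries no neighbours in that order overlapped. Adipoq moved from the fourth to the seventh place.

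The wider adipokine system was read from a list of 76 other genes, of which 75 were in the table and 56 were tested. In shFTO against shScram cells, 29 were higher and 2 lower in preadipocytes, 17 higher and 9 lower at the MCE stage, and 17 higher and 13 lower after differentiation. Of all genes tested, 15.9% were higher and 12.3% lower in preadipocytes, 10.5% and 7.26% at the MCE stage, and 11.9% and 9.31% after differentiation. Without replicate 1 of shScram Pre the list gave 28 higher and 2 lower, 26 and 12, and 25 and 15, and without replicate 1 of shScram Diff 26 and 2, 17 and 9, and 12 and 9, fits added after the values were seen. The medians were 0.74, 0.29 and 0.15, against 0.08, 0.05 and 0.03 over all genes tested. After differentiation, 13 of 29 tested other adipokines were higher and 3 lower, while of 10 receptors of other adipokines 4 were lower and 0 higher (limma, adjusted p under 0.05), a contrast of roles that was not tested.

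**Figure D5:**
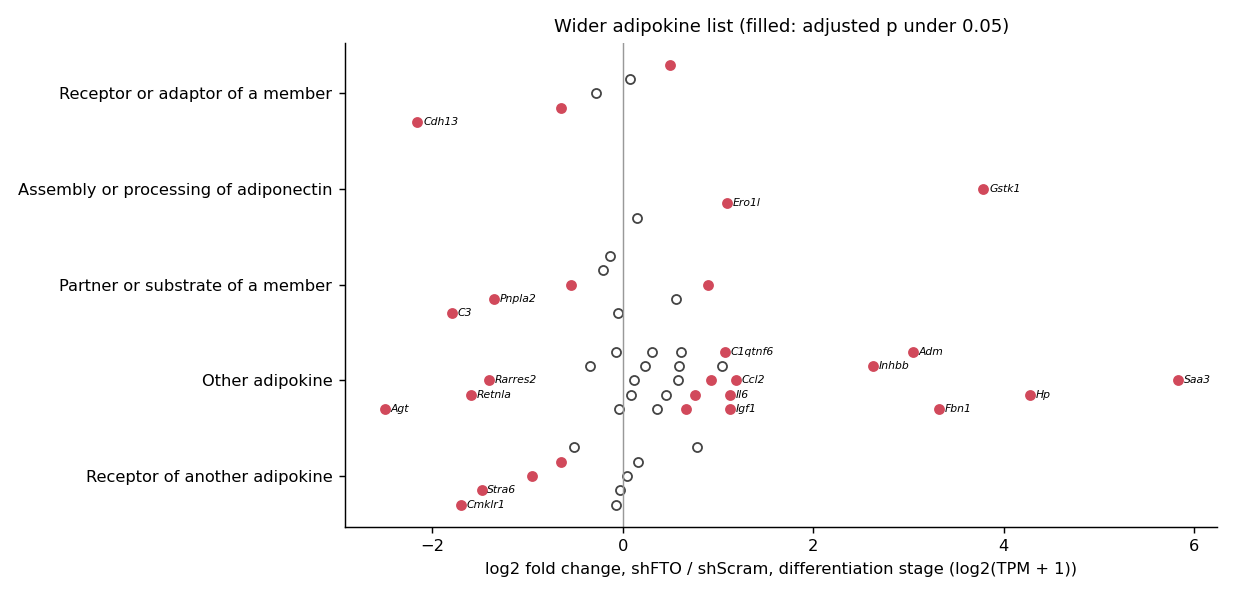
Log2 fold change of shFTO against shScram after differentiation (horizontal axis, log2(TPM + 1) scale) for the tested genes of the wider list, 1 point per gene, in rows by role, with points spread vertically for reading. Filled red points passed an adjusted p under 0.05, of which names are given beyond a log2 fold change of 1 in either direction, and Gpihbp1, listed at 0 in shFTO cells, and 1 gene not reported here are left out. Saa3 at 5.83 and Hp at 4.27 lie farthest to the right and Agt at -2.50 farthest to the left.

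After differentiation, a pair of acute phase proteins had the largest positive values of the genes named. Saa3, serum amyloid A3, was higher at all 3 stages (3.81, 3.29 and 5.83), and after differentiation it was 31.6 and 29.1 TPM (shScram) and 1949 and 1619 TPM (shFTO). Hp, haptoglobin, was also higher at all stages (3.22, 2.82 and 4.27), with 95.2 and 91.1 TPM against 1837 and 1794 TPM after differentiation. The largest adjusted p of these 6 differences was 8.05e-05.

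Other genes of the list were higher at one or more stages. Adm, adrenomedullin, was higher by 3.38 at the MCE stage and 3.04 after differentiation, and Fbn1, whose product releases the hormone asprosin, by 3.32 after differentiation. Inhbb, an activin subunit, was higher by 3.80 in preadipocytes (0 and 0.0244 TPM against 12.03 and 14.2 TPM), and Il6 by 2.22 at the MCE stage (adjusted p = 0.000954). C1qtnf5, a relative of adiponectin, was higher by 2.73 in preadipocytes (adjusted p = 0.0198), with 0.370 and 7.96 TPM (shScram) and 23.3 and 21.2 TPM (shFTO), where the lower shScram value is that of replicate 1, without which the difference was 1.37 (adjusted p = 0.00105). Gstk1, the gene of DsbA-L, which assists adiponectin assembly, was at 0 to 0.440 TPM (shScram) and 5.76 to 14.2 TPM (shFTO) over all stages. Gstk1 met the filter on low values only through shFTO libraries, where it is high, and its place among the genes called higher depends on that. It was listed at 0 in both shScram Pre libraries, and its log2 fold change after differentiation was 3.78 (SE 0.23, adjusted p = 1.13e-05). Ero1l, an oxidase of the secretory pathway that frees adiponectin from retention, was 117 and 132 TPM in shScram Diff and 251 and 284 TPM in shFTO Diff libraries (1.10, SE 0.16, adjusted p = 0.00177).

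Other genes of the list were lower. C3, the complement component whose cleavage adipsin initiates, was 984 and 903 TPM (shScram) and 274.5 and 230 TPM (shFTO) at MCE, and 2653 and 2540 TPM against 755 and 737 TPM after differentiation (-1.90 and -1.80, adjusted p = 8.93e-05 and 8.68e-05). C3 shares its locus with a microRNA gene on the same strand. Agt, angiotensinogen, was lower at these stages, with log2 fold changes of -1.80 and -2.50 (adjusted p = 0.00457 and 0.000676), and Retnla, a relative of resistin, with -1.68 and -1.60 (adjusted p = 0.00126 and 0.00132). Pnpla2, the triglyceride lipase ATGL that binds PEDF, was lower at the MCE stage (-2.31, adjusted p = 0.000125), and Il6ra, the IL-6 receptor, as well (-1.46, adjusted p = 0.00315). After differentiation Cmklr1, the chemerin receptor, was lower (-1.70, adjusted p = 0.0003). Gpihbp1, which carries lipoprotein lipase across the capillary wall, was 2.03 and 1.72 TPM in shScram Diff libraries and listed at 0 in both shFTO Diff libraries. It met the filter on low values through these shScram libraries, where it is high, and its place among the genes called lower depends on that.

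Markers of other cell types were read beside these results. The summed TPM of 8 adipocyte markers (Fabp4, Plin1, Cidec, Lpl, Pparg, Cebpa, Plin4 and Lipe) was 1463 to 1485 in shScram Diff and 476 to 509 in shFTO Diff libraries, with 6 of 8 called lower in shFTO cells, against 9.31% of all genes tested. For MCE libraries it was 430 to 439 against 299 to 309, with 5 called lower and Lpl higher, against 7.26% and 10.5% of all genes. The number called lower was 7 without replicate 1 of shScram Pre and 4 without replicate 1 of shScram Diff at MCE, and 6 without either after differentiation. In preadipocytes the sum was higher in shFTO (286 to 318 TPM) than in shScram libraries (171 to 211 TPM). There 2 of 8 markers were called higher and 1 lower, against 15.9% and 12.3% of all genes. Single genes weigh heavily in the sum. In preadipocytes the highest single marker reached 281 TPM in shFTO and 174 TPM in shScram libraries. Lpl, which was not called after differentiation, was at up to 282 TPM in shFTO Diff libraries. After differentiation, the low hormone levels thus went with low levels of 6 of these 8 adipocyte genes. The part of differentiation as a whole in the members' values was not tested. Fibroblast markers summed to 8283 to 13503 TPM over all libraries. The 6 macrophage markers summed to at most 10.98 TPM and the 5 endothelial markers to at most 1.93 TPM in any library, with Ptprc at or below 0.0730 TPM and Pecam1 at or below 0.495 TPM.

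As a description over the 12 libraries, which share 6 groups, the genes with the most similar course to each member were sought among 10799 genes that averaged 5 TPM or more. Adipoq was most like Adamts12 (r = 0.974), Gpd1 (0.964) and Frmd6 (0.962), Cfd most like Mfsd8 (0.988), Thrsp (0.982) and Cd36 (0.976), and Retn most like Snx29 (0.979), Cidec (0.978) and Ear1 (0.977). Angptl4 went with Pi16 (0.982), Tcf7l1 (0.979) and 2610528A11Rik (0.976), and Apln with Pgam1-ps2 (0.955), Bnip3 (0.948) and Emb (0.936). Serpinf1 went with Acta2 (0.986), Myl9 (0.972) and Lonrf1 (0.971). Nampt was most like Zmym5 (0.989), Zfp397 (0.987) and Atxn3 (0.985), Adipor1 like Sec61a1 (0.991), Tspan31 (0.990) and Cope (0.990), and Adipor2 like Fzd1 (0.986), Pi16 (0.980) and Magee1 (0.975). Between members, r was 0.934 for Adipoq and Cfd, 0.912 for Cfd and Retn, 0.958 for Angptl4 and Adipor2 and -0.83 for Retn and Serpinf1.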

How the data were processed

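Total RNA of 3T3-L1 cells was fragmented and sequenced, and 12 libraries of 6 groups were analysed here, grouped by their titles. Per the submitters' processing notes and the paper's methods, the authors used Trim Galore 0.6.5 for trimming and HISAT2 2.1.0 for alignment to GRCm38, and the deposited values are TPM per gene from StringTie 2.1.4 with the Ensembl annotation. Their own test, DESeq2 1.30.1 on counts, was not repeated, since counts were not used here. TPM keeps no depth, so the depth behind a value is unknown; 20853 to 24018 genes were above 0 per library. The study's libraries of rhein-treated cells and immunoprecipitated RNA were not analysed here.

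From TPM, log2(TPM + 1) was computed for the 15968 genes that reached 1 TPM in 2 or more libraries and fitted with limma 3.58.1 in R 4.3.3 (a mean per group, eBayes with trend, 6 residual degrees of freedom, two-sided, Benjamini-Hochberg adjustment). Stage differences of the knockdown effect were interaction contrasts. Tables were made with Python 3.11.15, numpy 2.4.6 and pandas 2.3.3. Coordinates are of GENCODE M21 on GRCm38, and promoters and their motifs of RefSeq, which had windows for 9 of 10 members. In simulated data for the comparison after differentiation (15968 genes), 170 of 200 genes with a planted log2 change of 2 were recovered, with 9 false calls.

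The members and lists were chosen with earlier results of these data known. All members, all receptors or adaptors of members, and in each comparison of the lines up to 6 genes of the wider list per direction with an adjusted p under 0.05 and a fold change over 2 are named, with the 3 genes most like each member; 1 gene that met the rule is not reported here. Lpl and Ero1l, further genes of the list, were both named after their values were seen. Alternatives were another pseudocount, filters, scalings, the study's thresholds, eBayes with no trend, a block on replicate number, fits on the libraries of a contrast, and each library left out.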

Additional observations from a re-analysis of the deposited data

Results flagged for a closer look

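On the log2(TPM + 1) scale the knockdown effect differed between stages, by the test of the difference itself, in 6 cases. From preadipocytes to the MCE stage it changed by 2.69 for Apln (limma adjusted p = 0.00317), by 0.89 for Serpinf1 (adjusted p = 0.0224) and by -1.65 for Cfd (adjusted p = 0.0271). From MCE to differentiation it changed by -3.95 for Adipoq (adjusted p = 0.00075), by -2.36 for Cfd (adjusted p = 0.0085) and by -0.86 for Serpinf1 (adjusted p = 0.036). The Apln and Adipoq values were called in all 12 fits that left out 1 library. Adipoq was near the floor in both lines at MCE, where a lower value could hardly show. The first Cfd change and both Serpinf1 changes lost their calls in several of these fits. The second Cfd change lost its call in 1 of them and with a pseudocount of 0.1. No group had 4 or more libraries, so the gap test for an outlying sample of a group was not run.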

How the results depend on the processing

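Over 80 member values and 1591 alternative fits, 1412 kept direction and side of the threshold, 97 lost a call, 57 gained one and 25 turned sign. The members called were fewer or more by over 1.5 times as follows, and the causes were not tested. With only the libraries of the contrast, limma called 0 members in preadipocytes (2 at an unadjusted p under 0.05, lowest adjusted p 0.22; the other alternatives called 1 to 5), 8 after differentiation, 4 from Pre to MCE in shScram, 6 from MCE to Diff in shFTO, and 1 for the change of effect from Pre to MCE. Median-ratio scaling called 5 from MCE to Diff in shFTO, the study's fold and p thresholds called 2 from MCE to Diff in shScram, and a pseudocount of 0.1 called 1 for the change of effect from MCE to Diff. With 1 library left out, the counts ranged from 1 to 5, 2 to 6 and 3 to 8 for the lines in stage order, from 7 to 9 and 3 to 7 for the shScram steps, from 5 to 7 and 1 to 6 for the shFTO steps, and from 1 to 7 and 1 to 4 for the changes of effect. The libraries behind these counts are named beside the results.

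Sign turned only for values that were not called. These were Adipor2 in preadipocytes (-0.063 under quantile normalization) and at the MCE stage (-0.049 under median-ratio scaling, -0.098 under quantile normalization), Adipor1 from Pre to MCE in shFTO (0.19 and 0.0090), Retn from MCE to Diff in shFTO (-0.044 and -0.50), Serpinf1 for that step (0.0045 under quantile normalization) and the change of the Apln effect from MCE to Diff (0.0066 and 0.10). With 1 library left out, values that turned ranged from -0.133 to 0.0569 for Retn, from -0.322 to 0.301 for Angptl4 and from -0.180 to 0.377 for Adipor2 in preadipocytes, from -0.0346 to 0.0700 for Adipor2 at the MCE stage, from -0.0977 to 0.00717 for Adipor1 from Pre to MCE and from -0.0836 to 0.183 for Retn from MCE to Diff in shFTO, from -0.360 to 0.198 for the change of the Adipor2 effect from Pre to MCE, and from -0.158 to 0.0729 for that of Apln and -0.0252 to 0.187 for that of Adipor1 from MCE to Diff.

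The replicate numbers mark no shared batch in the labels, and the replicate differences of the groups compared correlated between -0.20 and 0.17 over genes, so they share only a number. With the replicate number as a block, 2, 4 and 5 members were called between the lines, 8 and 4 in the shScram steps, 6 and 3 in the shFTO steps, and 3 and 2 for the changes of effect. The calls that the block ended were Nampt in preadipocytes (adjusted p = 0.0575), Retn from MCE to Diff in shScram (0.0505) and the change of the Serpinf1 effect from MCE to Diff (0.0744).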
